A study of Homo sapiens with 6 samples.

Results

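The F-box protein genes are the protein-coding genes whose symbols begin with FBXO, FBXL or FBXW followed by a number. GENCODE v44 gives 75 genes of any type with such a symbol, 63 of them are protein-coding, and all 63 had a row among the 60676 genes of the deposited tables. The libraries are RNA-Seq of the human neuroblastoma line SK-N-BE, which turns towards a neuronal state under retinoic acid, with all cells differentiated for 1.5 days in medium with 10 µM retinoic acid. The 3 si-SCR libraries came from cells given a scrambled control siRNA, and the 3 si-CyCoNP libraries from cells given an siRNA pool against the long noncoding RNA CyCoNP, so the contrast is a transient knock-down in 1 cell line. The question here is how the F-box genes differ between both groups.

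F-box proteins are the substrate receptors of SCF ubiquitin ligases. The F-box motif binds SKP1, SKP1 binds the scaffold CUL1, and CUL1 carries the RING protein RBX1, which brings the ubiquitin-conjugating enzyme. The rest of each F-box protein picks the target: WD40 repeats in the FBXW proteins, leucine-rich repeats in the FBXL proteins, and various other domains in the FBXO proteins. In neurons and dividing precursors these ligases set the lifetime of cyclins, transcription factors, and synaptic and mitochondrial proteins.

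Library totals ranged from 3762009 to 4799407 counted fragments, of which the 63 genes took 0.195% ± 0.00192 with si-SCR, against 0.181% ± 0.00248 with si-CyCoNP (SD, n = 3 each). LINC02381, the gene of CyCoNP (chr12:54126019-54147485, plus strand, GRCh38), fell from 14.4 ± 1.31 to 1.10 ± 0.498 FPKM (fragments per kilobase of gene and per 1e6 counted fragments), or to 7.30% of the si-SCR level in the edgeR fit (adjusted p = 6.84e-14). All 10 markers chosen for the sympathetic neuroblastoma lineage were at 1 FPKM or more in every library. The first principal component (51.4% of the variance) separated the groups, and si-SCR replicate 3 lay nearest to the si-CyCoNP libraries. The labels do not say whether the replicates are separate cultures, so p-values measure the spread between these samples, which may be technical.

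Of the 63 F-box genes, 45 reached a mean of 1 FPKM in either group and were tested, and 18 did not. FBXO39, FBXO40, FBXO47 and FBXW10B had no count in any library, which says only that they were not detectable at this depth. No untested gene had more than 53 counts over the 6 libraries, while the tested ones had at least 66 and a median of 926. In si-SCR, 12 of the tested genes were at 10 FPKM or more, 13 between 5 and 10, and 20 below 5. FBXL13 and FBXO25 passed the filter through si-SCR alone, so they could only have been tested if they were higher there, and counts over the tested genes carry that selection.

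In the si-CyCoNP libraries, 10 of the 45 tested F-box genes were lower and 4 were higher at an adjusted p under 0.05. Among all 13966 genes tested, 14.2% were lower and 14.2% were higher by the same rule, and 28.4% passed in either direction, against 14 of 45 here. FBXO8, FBXL7 and FBXL13 fell by more than 1 on the log2 scale, where the background is 2.98%. By edgeR none of these 45 genes rose by as much (background 2.28%), also at an unadjusted p under 0.05 and also by DESeq2. FBXO8 was singled out beforehand for its strong decrease, and FBXL13 passed the filter through si-SCR alone. The 10 lower genes and the 3 that fell by more than 1 carry that selection. Setting them beside the background therefore adds no support. F-box genes with other symbols are not among the 45 and are described below. The groups did not overlap in FPKM for 16 of the 45 genes, with si-CyCoNP below in 10 and above in 6, where 40.3% of all tested genes did not overlap, 16.1% with si-CyCoNP below and 24.2% above. The median log2 fold change of the 45 genes was -0.07, and that of all tested genes was 0.01. Scaled by library totals alone, 7 were lower and 6 higher, and the median was -0.00094. With that scaling, 28.9% of all genes tested passed in either direction.

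**Figure D1:**
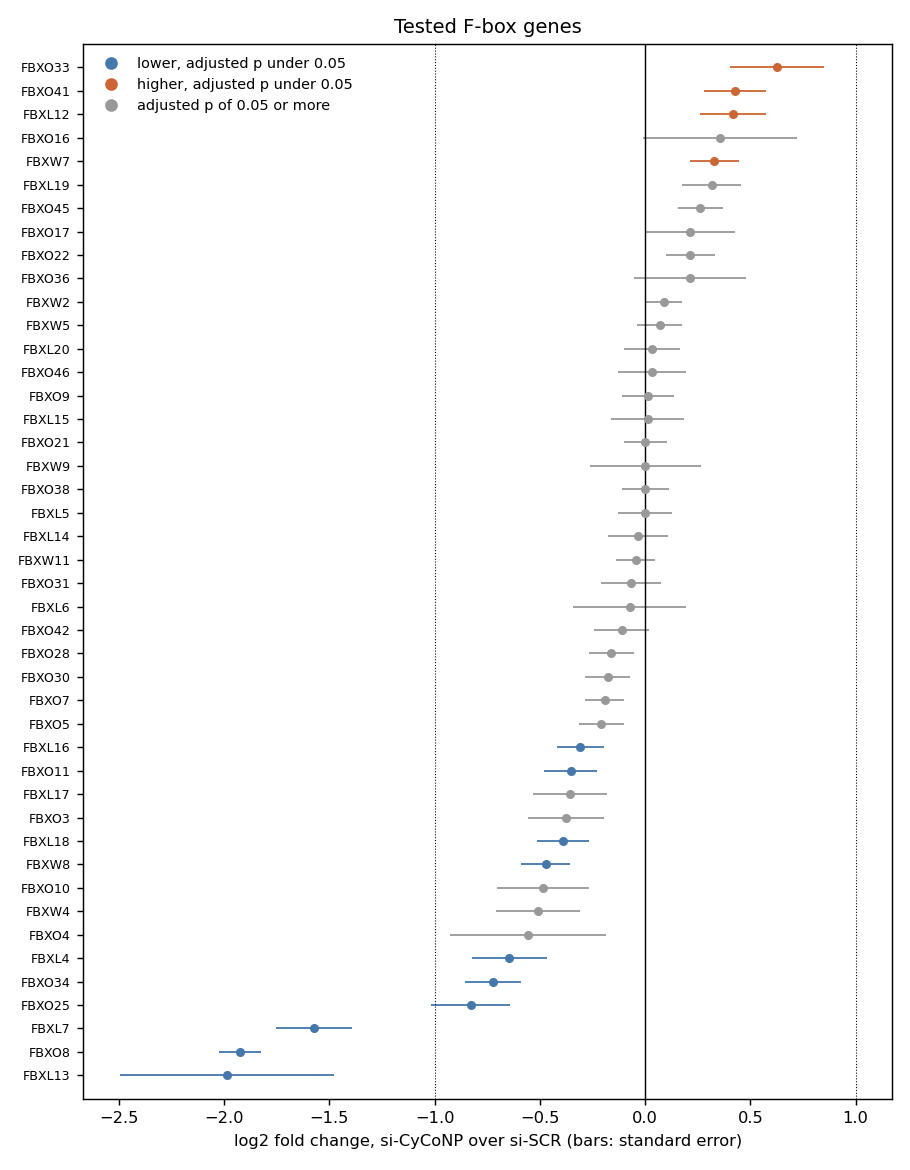
Log2 fold change (horizontal axis, si-CyCoNP over si-SCR) of the tested F-box genes described here, with bars for the standard error and dotted lines at -1 and 1. FBXL13, FBXO8 and FBXL7 lie left of -1, no gene lies right of 1, and most points lie between -0.5 and 0.5.

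By subfamily, 4 of 24 tested FBXO genes were lower and 2 higher, with a median of -0.09. Of 14 tested FBXL genes 5 were lower and 1 higher, with a median of -0.15. Of 7 tested FBXW genes 1 was lower and 1 higher, with a median of 0.00. Among all genes tested, 14.2% were lower and 14.2% higher. The subfamilies were read from the symbols, so F-box genes with other symbols, described below, are not counted in them. No test of a difference between the subfamilies was made.

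FBXO8 (ENSG00000164117, chr4:174236658-174283667, minus strand) had the highest level of all F-box genes in si-SCR. It encodes a protein with an F-box and a Sec7 domain, the domain of exchange factors for ARF GTPases, and is known for directing ubiquitination of ARF6. FBXO8 was at 72.3, 78.4 and 66.5 FPKM in the si-SCR libraries and at 20.5, 20.2 and 19.2 FPKM in the si-CyCoNP libraries. Every si-CyCoNP library was far below every si-SCR library, and the spread within each group was small against the gap. The counts behind these levels were 687, 653 and 704 fragments with si-SCR, against 218, 190 and 176 with si-CyCoNP. In the edgeR fit FBXO8 fell by 1.92 on the log2 scale (SE 0.101, adjusted p = 1.28e-13), which leaves 26.4% of the si-SCR level.

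FBXO8 held 19.2% ± 1.26 of the summed FPKM of the 63 genes with si-SCR, against 6.26% ± 0.186 with si-CyCoNP (SD, n = 3). The sum itself was 377 ± 7.13 and 319 ± 6.70 FPKM. Without FBXO8 it was 305 ± 3.14 and 299 ± 6.34 FPKM. That gap was smaller than the SD of the si-CyCoNP libraries and larger than that of the si-SCR libraries. In bulk RNA, fewer cells that express a gene and less of its RNA per cell cannot be told apart.

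FBXO8 stands head to head with CEP44, which encodes a centrosomal protein and lies on the plus strand. The 5′ ends of both genes are 63 bases apart in GENCODE v44. RefSeq (GRCh38.p14) puts the CEP44 start further from FBXO8 than GENCODE does, and the RefSeq promoter windows of both genes (250 bases before and 50 after each start) share 257 bases. The windows hold a match to CCGGAAG, a core word of ETS-family binding sites, which on the FBXO8 strand reads CTTCCGG and begins 8 bases before the FBXO8 start. It is printed to show the DNA around the FBXO8 start, most of which both windows hold, and the capitals mark the ETS word (chr4:174283658-174283686, minus strand).

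FBXO8: gcctaacgtcaCTTCCGGcaacaatagga

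CEP44 was at 30.4, 30.6 and 32.6 FPKM with si-SCR and at 27.7, 25.3 and 27.8 FPKM with si-CyCoNP. All 3 si-CyCoNP libraries were below the si-SCR libraries, with a much smaller gap than for FBXO8 (log2 fold change -0.28, adjusted p = 0.0114). The call of CEP44 did not hold in every alternative setting described below. The log2 ratio of FBXO8 to CEP44 was 1.25, 1.36 and 1.03 with si-SCR, against -0.43, -0.32 and -0.54 with si-CyCoNP. The ratio was thus lower by 1.64 in si-CyCoNP, with no overlap between the groups. An exact permutation test gave a two-sided p of 0.1, the smallest that 3 against 3 libraries can give. FBXO8 was singled out beforehand for its strong decrease, so this p adds no support.

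Within 500 kb of FBXO8 on either side the annotation gives 15 other genes, of which 13 had a row and 6 were tested. LINC02268, a long noncoding RNA gene on the same strand, fell by 0.48 on the log2 scale (adjusted p = 0.016). This call also did not hold in every alternative setting. The 4 other tested neighbours are unnamed genes with at most 277 counts in all, and none passed: ENSG00000250043 had a log2 fold change of 0.65, ENSG00000251216 of -0.32, ENSG00000250957 of -1.10 and ENSG00000251213 of -1.29. The protein-coding neighbours HPGD and GLRA3 had no count in any library.

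ARF6, the small GTPase named above as a target of FBXO8, was at 46.6, 52.7 and 47.3 FPKM with si-SCR and at 32.7, 35.4 and 37.5 FPKM with si-CyCoNP. Its RNA was lower in every si-CyCoNP library (log2 fold change -0.54, SE 0.089, adjusted p = 3.19e-05). Of 19 listed ARF and Sec7 genes, 14 were tested, 3 were lower and 1 higher, and their median was -0.01. The share that passed, 28.6%, was near the 28.4% of all genes tested. CYTH3, a Sec7 exchange factor for ARF proteins at the plasma membrane, fell by 0.52 on the log2 scale (adjusted p = 0.00518). IQSEC1, an exchange factor for ARF6, fell by 0.35 (adjusted p = 0.0411), and its groups overlapped in FPKM. GBF1, the Golgi exchange factor for ARF1, rose by 0.48.

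**Figure D2:**
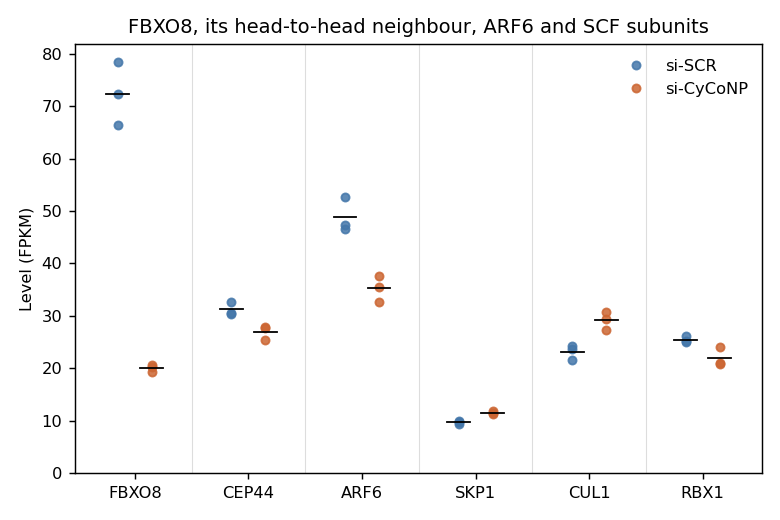
FPKM (vertical axis, from 0) of FBXO8, its neighbour CEP44, ARF6 and the SCF subunits SKP1, CUL1 and RBX1 in each si-SCR and si-CyCoNP library, with black bars for the group means. FBXO8 goes from 72.4 to 19.97 FPKM on average, below CEP44 and ARF6, while the other genes stay within a narrower range.

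FBXL7 (ENSG00000183580, chr5:15500180-15939795, plus strand) encodes a leucine-rich repeat receptor of the centrosome that targets Aurora A and survivin, both needed for mitosis. Its levels were 7.08, 8.41 and 7.21 FPKM with si-SCR and 3.12, 1.69 and 3.12 FPKM with si-CyCoNP. All si-CyCoNP libraries were low, replicate 2 lowest, and the groups did not overlap. FBXL7 fell by 1.57 on the log2 scale (SE 0.181, adjusted p = 1.45e-07), from counts of 148 to 168 per si-SCR library and 35 to 73 per si-CyCoNP library.

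FBXL13 (chr7:102811189-103074839, minus strand), which encodes a receptor found at centrosomes, was the weakest of the tested genes in level. It was at 1.05, 1.46 and 0.63 FPKM with si-SCR and at 0.16, 0.23 and 0.42 FPKM with si-CyCoNP. These levels rest on 12 to 22 counts per si-SCR library and 3 to 7 per si-CyCoNP library, and si-SCR replicate 3 was the nearest to the other group. FBXL13 fell by 1.99 on the log2 scale with the widest error of the 3 (SE 0.508, adjusted p = 0.0038). On the log2(FPKM + 1) scale of limma its adjusted p was 0.0515.

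A further 7 genes were lower by less than 1 on the log2 scale. FBXO34, whose protein has few known substrates, went from 12.7, 14.4 and 10.6 to 7.52, 7.56 and 8.83 FPKM (log2 fold change -0.72, adjusted p = 0.000154). FBXO25, a nuclear F-box protein on chromosome 8, went from 1.61, 1.58 and 1.61 to 0.87, 0.88 and 1.08 FPKM (log2 fold change -0.83, adjusted p = 0.00135). FBXW8, which pairs with CUL7 and acts in dendrite growth at the Golgi, went from 9.25, 8.68 and 9.11 to 6.88, 6.96 and 6.58 FPKM (log2 fold change -0.47, adjusted p = 0.00298). In each of these 3 genes the groups did not overlap.

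FBXL4, a mitochondrial protein that restrains mitophagy, was at 2.64, 2.46 and 3.06 FPKM with si-SCR and 1.62, 1.65 and 2.23 FPKM with si-CyCoNP (log2 fold change -0.64, adjusted p = 0.00681). FBXL16, an F-box protein rich in brain, was at 17.0, 14.5 and 14.5 FPKM with si-SCR and 12.7, 13.6 and 12.8 FPKM with si-CyCoNP (log2 fold change -0.31, adjusted p = 0.0392). Neither gene overlapped between the groups, with a gap of under 1 FPKM for each.

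FBXL18, which is known to target the FBXL7 protein, was at 5.11, 6.57 and 6.41 FPKM with si-SCR and 4.12, 5.07 and 5.29 FPKM with si-CyCoNP (log2 fold change -0.39, adjusted p = 0.0176). FBXO11, a receptor for BCL6, was at 12.05, 8.0 and 9.81 FPKM with si-SCR and 7.89, 7.82 and 8.86 FPKM with si-CyCoNP (log2 fold change -0.35, adjusted p = 0.0339). For both genes the groups overlapped: si-SCR replicate 1 was within the si-CyCoNP range for FBXL18, and si-SCR replicate 2 for FBXO11.

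The 4 genes that passed with higher levels all changed by less than 1 on the log2 scale. FBXO33, a receptor for the RNA-binding protein YB-1, went from 2.36, 2.0 and 3.04 to 3.84, 3.18 and 5.07 FPKM (log2 fold change 0.63, adjusted p = 0.0351). FBXO41, a neuronal F-box protein, went from 2.67, 2.69 and 2.43 to 3.43, 3.85 and 3.67 FPKM (log2 fold change 0.43, adjusted p = 0.0295). The groups did not overlap for either gene, though FBXO33 varied widely within each group.

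FBXL12, a receptor for the CDK inhibitor p57, went from 6.23, 7.67 and 8.47 to 8.80, 12.6 and 10.0 FPKM (log2 fold change 0.42, adjusted p = 0.0498). FBXW7, the receptor for cyclin E, MYC, JUN and NOTCH1, went from 3.35, 3.92 and 4.4 to 5.11, 5.14 and 5.12 FPKM (log2 fold change 0.33, adjusted p = 0.0339). The 3 si-CyCoNP libraries were almost equal for FBXW7 and all above si-SCR. By DESeq2 none of these 4 genes passed after adjustment, while 4 F-box genes were higher at an unadjusted p under 0.05. Fewer of all genes tested passed by DESeq2 in either direction, 22.1% against 28.4% by edgeR.

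**Figure D3:**
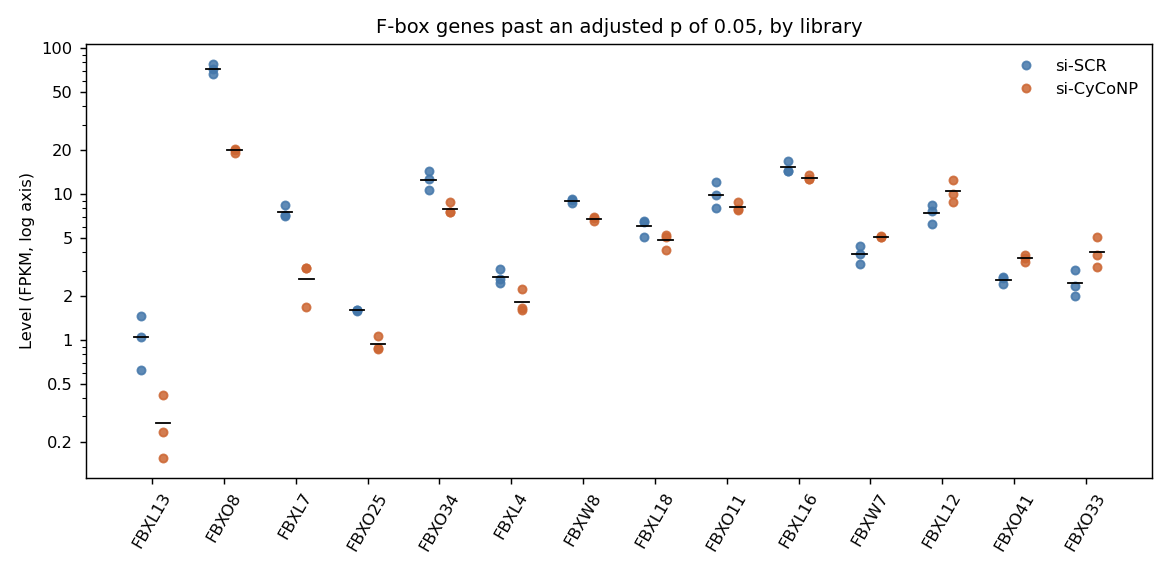
FPKM (vertical log axis) of the 14 F-box genes that passed an adjusted p of 0.05 in each library, ordered from the most negative to the most positive log2 fold change, with black bars for the group means. The widest gaps are those of FBXL13, FBXO8 and FBXL7 on the left, and the points of FBXL18 and FBXO11 overlap.

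Among the 63 genes, the 3 next to FBXO8 in level in si-SCR did not pass. FBXL16 and FBXO34, described above and also over 10 FPKM there, did. FBXW5, the receptor for the centriole protein SAS6, was at 22.6 ± 2.04 FPKM with si-SCR and 24.8 ± 3.0 FPKM with si-CyCoNP (SD, n = 3, log2 fold change 0.07) and ranked first in si-CyCoNP, where FBXO8 ranked second. FBXW11, one of the β-TrCP proteins that target β-catenin and IκB, was at 19.3 ± 1.6 and 19.6 ± 0.287 FPKM (log2 fold change -0.04). FBXO5, or EMI1, an inhibitor of the anaphase-promoting complex, was at 16.1 ± 1.64 and 14.6 ± 0.180 FPKM (log2 fold change -0.21, adjusted p = 0.158).

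Grouped by what their proteins do, 2 of 8 tested cell cycle genes were lower (FBXL7 and FBXW8) and 1 was higher (FBXW7). These groups are small, and 14.2% of all genes tested were lower and 14.2% higher. Among those that did not pass, FBXO31, a receptor for cyclin D1, had a log2 fold change of -0.07 and FBXW2 one of 0.09. Of 7 tested genes with neuronal roles, FBXW8 and FBXL16 were lower and FBXO41 was higher. FBXO45, which acts with the ligase PHR1 at synapses, had a log2 fold change of 0.26 (adjusted p = 0.0681), FBXO7, mutated in an early parkinsonism, one of -0.19, and FBXL20, which targets a presynaptic protein, one of 0.03.

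Of 4 tested genes with circadian or metabolic roles, FBXL4 was lower, where 14.2% of all genes tested were lower. FBXL5, the iron sensor, and FBXO21 both had a log2 fold change of 0.00. Of 6 tested genes with roles in transcription or DNA repair, FBXO11 was lower and FBXL19, a CpG-binding protein, had a log2 fold change of 0.32 (adjusted p = 0.0959). Of 5 F-box genes related in sequence, a subfamily known for members that bind sugar chains of glycoproteins, FBXO17 alone was tested (log2 fold change 0.22), while FBXO2, FBXO6, FBXO27 and FBXO44 were below the filter.

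F-box proteins also exist under other symbols. Of 8 such genes 5 were tested, 3 were higher and 1 lower, with a median of 0.25. Among all genes tested, 14.2% were higher and 14.2% lower. KDM2A, a histone H3 lysine 36 demethylase with an F-box, was at 11.5, 10.9 and 14.2 FPKM with si-SCR and 24.9, 25.9 and 26.4 FPKM with si-CyCoNP, and rose by 1.01 on the log2 scale (adjusted p = 2.21e-09). Its paralog KDM2B rose by 0.96 (adjusted p = 8.53e-08), and SKP2, the receptor for the CDK inhibitor p27, rose by 0.25 (adjusted p = 0.0219). BTRC, the other β-TrCP gene, fell by 0.44 (adjusted p = 0.00532), while its paralog FBXW11 did not pass. CCNF, which encodes cyclin F, had a log2 fold change of -0.03.

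The subunits and enzymes that F-box proteins work with were all tested, 13 of 13, and 1 was higher and 2 lower, with a median of 0.00. The share that passed was 23.1%, against 28.4% of all genes tested. CUL1 was at 21.6, 23.7 and 24.2 FPKM with si-SCR and 29.5, 27.4 and 30.8 FPKM with si-CyCoNP, a rise of 0.27 on the log2 scale (adjusted p = 0.0288). RBX1 fell by 0.28 (adjusted p = 0.0391), and ARIH1, a ligase that adds the first ubiquitin beside CUL1, fell by 0.40 (adjusted p = 0.000849). SKP1 had a log2 fold change of 0.18 (adjusted p = 0.128).

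NEDD8 switches cullins on, the COP9 signalosome removes it, and CAND proteins exchange the F-box subunit. Of 22 tested genes of these 3 systems, 3 were higher and 2 lower, with a median of -0.05. Thus 22.7% passed, against 28.4% of all genes tested. DCUN1D1, an enzyme that helps to attach NEDD8, fell by 0.88 and DCUN1D2 fell by 0.69 on the log2 scale, while their relatives DCUN1D4 and DCUN1D5 rose by 0.40 and 0.31. COPS4, a subunit of the signalosome, rose by 0.41.

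SCF ligases act on proteins, so the RNA of their substrates does not measure their activity. Of 21 tested substrate genes 8 were lower and 4 higher, with a median of -0.09. This is 57.1% in either direction, against 28.4% of all genes tested. The list was chosen with earlier results of these data known, so the higher share adds no support. JUN, a substrate of FBXW7, fell by 1.10, MED13, a Mediator subunit targeted by FBXW7, fell by 0.71, and CTNNB1, which encodes β-catenin, fell by 0.79 on the log2 scale. MYCN, the MYC-family gene whose protein FBXW7 also binds, was at 428 ± 19.0 FPKM with si-SCR and 806 ± 57.7 FPKM with si-CyCoNP and rose by 0.84.

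Adaptors of other cullins were set beside the F-box genes. Of 23 tested KLHL genes, whose kelch proteins bind CUL3, 8 were lower and 3 higher, with a median of -0.27, and KLHL13 fell by 0.51 while KLHL21 rose by 1.06. Of 13 tested DCAF genes, whose proteins bind the CUL4 ligase, 1 was higher (DCAF6, log2 fold change 0.59) and 0 were lower by edgeR and by DESeq2, also at an unadjusted p under 0.05. By edgeR 47.8% of these KLHL genes and 7.69% of these DCAF genes passed after adjustment, against 28.4% of all genes tested. The differences between these families and the F-box genes were not tested.

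The study examines miR-4492 beside CyCoNP, so the 3′UTRs of the F-box genes were searched for its seed match. The mature miRNA (RefSeq, GRCh38.p14, chr11:118910765-118910781, plus strand) is printed with its seed, bases 2 to 8, in capitals.

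hsa-miR-4492: gGGGCUGGgcgcgcgcc

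The match to this seed is CCAGCCC, and it was searched for on the transcript strand in the 3′UTR of each gene's canonical GENCODE v44 transcript. It occurred in 11 of 45 tested F-box genes (24.4%) and in 23.4% of 10488 tested protein-coding genes. It occurred in 4 of the 10 lower genes (FBXL16, FBXL18, FBXO25 and FBXW8), in 1 of the 4 higher genes (FBXO41) and in 6 of the 31 others. The median 3′UTR was 2380 bases in the lower genes, 2084.5 in the higher genes and 1553 in the others. FBXO8, with a 3′UTR of 754 bases, and FBXL7 and FBXL13, the genes with the largest falls, had no match there.

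The first match in FBXL18 (chr7:5480216-5480244, minus strand), FBXW8 (chr12:117028510-117028538, plus strand) and FBXO41 (chr2:73258937-73258965, minus strand) is shown to set 2 lower genes beside 1 higher gene with the same word. The capitals mark the seed match, and the coordinates are those of the printed bases in GRCh38.

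FBXL18: gggccccttgtCCAGCCCgccttcctcct

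FBXW8: ccctcccagctCCAGCCCtgcaggccgtc

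FBXO41: cagggcccctgCCAGCCCcacaccagggc

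FBXL16 and FBXW8 had 3 matches each, FBXL18 had 4, and FBXO41, which was higher, had 9. A match is a description of the letters and not a site in use.

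RefSeq promoter windows of 300 bases were found for 49 of the 63 F-box genes, 34 of them tested. The ETS word CCGGAAG, on either strand, occurred in 9 of 34 (26.5%), in 18.2% of 12620 promoters of tested protein-coding genes and in 10.3% of all 35116 promoters. The F-box shares use only the first window of each gene, while the other shares count every window, so they are not fully alike. It occurred in 4 of the 7 lower genes with a window (FBXO8, FBXL4, FBXO11 and FBXW8) and in 1 of the 3 higher genes with a window (FBXL12). Other words searched on both strands were CACGTG (E-box, 8.82% of the tested F-box promoters and 9.59% of the tested protein-coding promoters), GGGCGG (SP, 79.4% and 67.3%) and CCAAT (NFY, 26.5% and 35.9%).

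The ETS words nearest to the start among the other lower genes were those of FBXL4 (chr6:98947928-98947956, minus strand) and FBXW8 (chr12:116910936-116910964, plus strand). The higher gene FBXL12 (chr19:9819256-9819284, minus strand) is printed beside them, with the word in capitals.

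FBXL4: tccgcgtcttcCTTCCGGgtcgcgctagg

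FBXW8: ggcggcagcggCTTCCGGccgcggcggac

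FBXL12: cccagccacgcCTTCCGGacttggtcccc

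These 29-base windows hold the same word at different distances from the start, and the 5 genes with it that passed include both lower and higher ones.

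The calls of FBXO8, FBXL7, FBXO34, FBXO25 and FBXW8 held under all 14 alternative settings, among them DESeq2, other normalizations and filters, limma on FPKM and the omission of each library in turn. FBXO8 ranged from -2.0 to -1.80 and FBXL7 from -1.72 to -1.26. FBXL13 and FBXL4 failed the threshold only with limma on FPKM, although FBXL13 could not be tested without si-SCR replicate 2, where it fell below the filter. The calls of FBXW7, FBXL12, FBXL16, FBXO11 and FBXO33 were lost under 7 to 10 of the 14 alternatives, those of FBXL18 under 5 and those of FBXO41 under 4. None of these 14 genes changed direction under any of them.

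**Figure D4:**
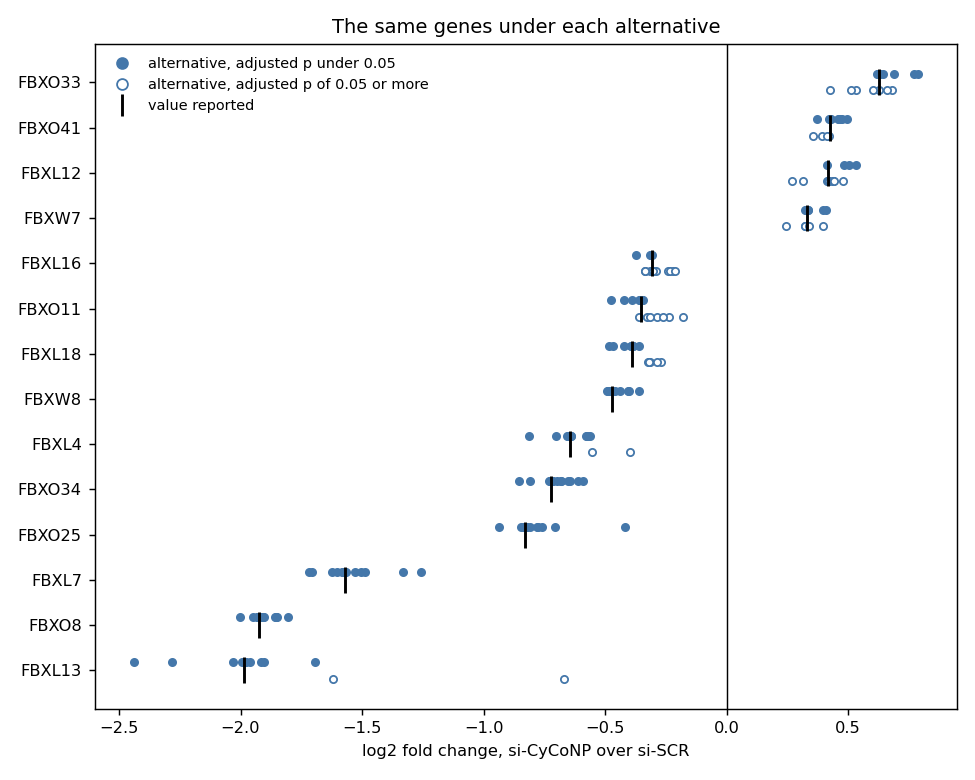
Log2 fold change (horizontal axis) of the 14 F-box genes that passed, as reported (black bar) and under each alternative (filled points with an adjusted p under 0.05, raised, and open points at 0.05 or more, lowered). FBXO8, FBXL7, FBXO25, FBXO34 and FBXW8 have filled points only, and FBXL12, FBXW7 and FBXL16 have mostly open ones.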

How the data were processed

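Total RNA of 3 si-SCR and 3 si-CyCoNP libraries was sequenced after rRNA depletion with a stranded kit. The authors trimmed reads with Trimmomatic v0.39 and Cutadapt v3.2, removed rRNA reads with Bowtie2 v2.4.2, aligned to GRCh38 with STAR v2.7.7a and deposited raw counts of uniquely mapping fragments per Ensembl gene. They also deposited FPKM values, and for 58 of the 58 F-box genes with counts in at least 2 libraries both tables gave 1 gene length within 0.1%. The counted fragments are far fewer than the read pairs that the study's methods describe, for reasons not given in the sources used here. Symbols came from GENCODE v44.

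Genes with a mean of at least 1 FPKM in either group (13966) were tested in R v4.3.3 with the quasi-likelihood test of edgeR v4.0.16 (TMM, Benjamini-Hochberg adjustment over all of them). The study named DESeq2, which was an alternative here (v1.42.0), as was limma v3.58.1 on log2(FPKM + 1) and log2(FPKM + 0.1). The code was tested on simulated data. The F-box genes and the gene lists were chosen with earlier results of these data known. Values were given for every F-box gene at an adjusted p under 0.05, for those with the highest levels and for some genes of the role groups. Of each other list, they were given mainly for the genes with the smallest p. Exons shared with another gene on the same strand were annotated for 8 tested F-box genes, none of which passed. A tested F-box gene and a sequence are not reported here.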

Additional observations from a re-analysis of the deposited data

How the results depend on the processing

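Of the F-box genes at an adjusted p under 0.05, the 4 higher ones became 0 by DESeq2 (4 at an unadjusted p under 0.05) and 1 by limma on log2(FPKM + 1) or log2(FPKM + 0.1), and 1 to 3 when a library was left out (2 without si-CyCoNP replicate 1 or si-SCR replicate 1, 1 without si-CyCoNP replicate 2, si-CyCoNP replicate 3 or si-SCR replicate 2, and 3 without si-SCR replicate 3). The 10 lower ones became 6 by limma at either pseudocount and 7 to 12 when a library was left out. Genes lower by more than 1 on the log2 scale numbered 2 or 3 under all 14 alternatives. The median log2 fold change of -0.07 became -0.00094 with library totals alone, 0.0079 and 0.0115 by limma with a pseudocount of 1 and 0.1, and -0.111 to -0.0415 when a library was left out. The median of all genes, 0.01 as reported, was 0.0724, 0.0623 and 0.0745 under these 3 settings, so that of the F-box genes stayed below it. FBXO8 lay between -2.0 and -1.86 and LINC02381 between -4.16 and -3.55 with 1 library left out. Over the 14 alternatives the counts of the other lists ranged from 0 to 3 higher and 0 to 3 lower for the SCF subunits, 1 to 6 and 1 to 3 for the NEDD8 group, 1 to 2 and 1 to 3 for the ARF group, 3 to 6 and 5 to 10 for the substrates, 3 to 4 and 3 to 9 for the KLHL genes, 0 to 2 higher for the DCAF genes, and 2 to 3 and 0 to 1 for the F-box genes with other symbols. The causes were not tested.

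With the replicate number as a block, 11 F-box genes were lower, 6 higher and 3 lower by more than 1 on the log2 scale, and FBXO8 was at -1.92. Of all genes tested, 34.2% passed in either direction with this block, against 28.4% without it. Same-numbered libraries of both groups correlated in their deviations with r = 0.0907, 0.0727 and 0.108, and each correlated best with its own number. This is a weak hint at most, because the values are small. The deviations are also taken from group means, so the correlations depend on each other. The labels do not say that the numbers pair the samples.

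Depth limits the low genes: FBXL13 rests on 66 fragments in all, and the 18 untested F-box genes on 53 or fewer each.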
